A study of Mus musculus with 3 samples.

Results

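The piRNA pathway genes examined here are 10 mouse genes: Piwil1, Piwil2, Piwil4, Tdrd1, Tdrd5, Tdrd9, Asz1, Gtsf1, Mael and Mov10l1. They were chosen by name, with earlier results of these data known. A gene was followed through every array probe whose RefSeq accession belongs to it. This gave 10 probes for 9 genes, out of 39404 probes for 32524 genes or unnamed transcripts; Piwil4 had no probe matched by accession and was not analysed here. RNA came from primary fibroblasts of E10.0 embryos (embryonic day 10.0) of C57BL/6J mice with the genotype Rb-/-;ATM-/-, so all 3 groups lacked both Rb1, the retinoblastoma gene, and Atm, which encodes a DNA damage kinase. The control group received an empty vector. The knockdown group received a vector for a short hairpin RNA (shRNA) against Dnmt1, the maintenance DNA methyltransferase, and had the genotype label Rb-/-;ATM-/-;DNMT1-depleted. The third group received a vector for ATM and is called ATM-labelled here, because no probe could check the vector (Rb-/-;ATM-/-;ATM-reconstituted). Selection lasted 3 days in puromycin (4 ug/ml) in every group, followed by 4 days of growth. Each was measured on 1 Agilent one-colour expression array. No group had a replicate, so no difference below has a test, a standard error between cultures or a p-value. The number of embryos behind the cells, the hairpin sequence and the promoters driving the vectors were not given in the sources used here.

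PIWI-interacting RNAs (piRNAs) are small RNAs that guide proteins of the PIWI family to transposon transcripts. In male fetal germ cells the pathway cuts those transcripts and directs DNA methylation to transposon promoters, and loss of most of its factors leaves male mice sterile. Fibroblasts are not known to use the pathway, and the promoters of several of its genes are methylated in somatic cells. The study's design sets depletion of the maintenance methyltransferase beside an empty-vector culture, which bears on whether such genes are read out in fibroblasts.

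Members were nearly silent in cells given the empty vector or the ATM vector, and 4 of the 9 were detected after the hairpin against Dnmt1. Detection means the scanner software's mark for a signal well above background. By that mark 1 of 9 members was detected on the control array (Gtsf1), 4 on the knockdown array (Gtsf1, Piwil2, Asz1 and Mov10l1) and 0 on the ATM-labelled array. Over all genes and unnamed transcripts the share detected was 54%, 58.6% and 53.9%, respectively. Piwil2, Asz1 and Mov10l1 were detected on the knockdown array and on no other, as were 4.08% of all genes and unnamed transcripts. The remaining 5 members, Piwil1, Tdrd1, Tdrd5, Tdrd9 and Mael, were not detected on any array, as was 39.2% of the whole.

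**Figure D1:**
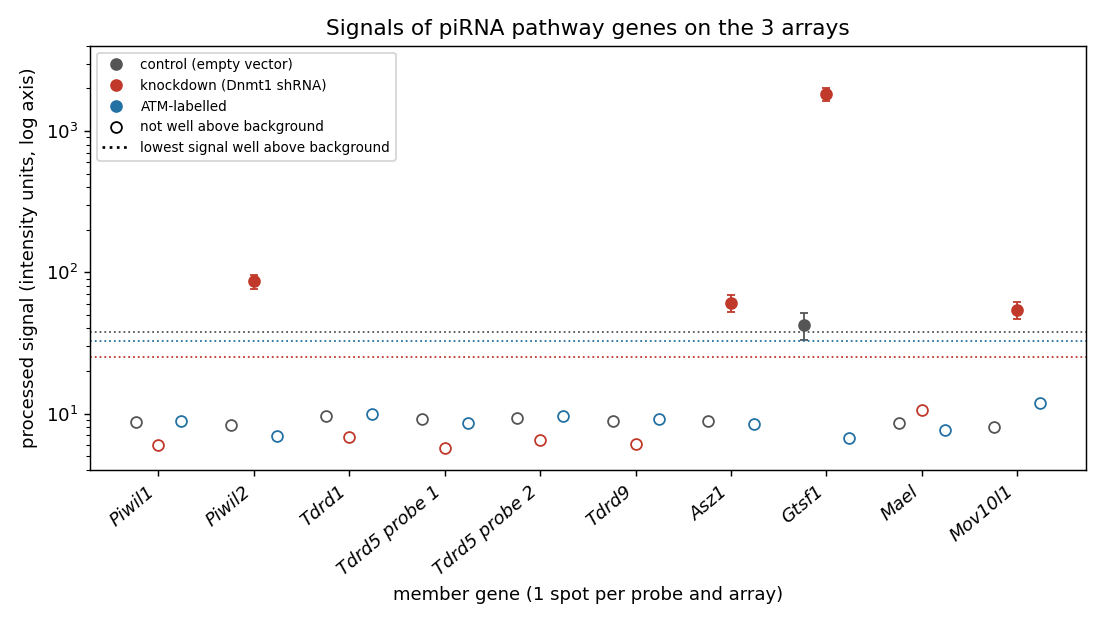
Processed signal (intensity units, log axis) of each member's probe on the 3 arrays; filled points are well above background, with bars for the scanner software's error of that spot, open points are not, and dotted lines give each array's lowest signal well above background. Gtsf1 reaches 1820 on the knockdown array, Piwil2, Asz1 and Mov10l1 stand between 54.3 and 86.3 there, and all other points except Gtsf1 on the control array lie below the lines.

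Gtsf1 encodes a small zinc finger protein that binds PIWI proteins and is needed for their silencing activity. Its probe read 42.1 ± 8.98 units of processed signal on the control array, 1820 ± 182 on the knockdown array and 6.76 on the ATM-labelled array (± is the scanner software's error of 1 spot, not a spread between cultures). The knockdown array was therefore high, the control array lay just above the lowest detected signal of that array (37.8), and the ATM-labelled array held only a floor value. The software gives such dim spots a small substitute close to their own error, so values of this kind have no order among arrays. After each array was set to its own 75th percentile, Gtsf1 was 48.5-fold higher on the knockdown array than on the control array. The log2 ratio was 5.60 with a software error of 0.34, which spans 38.3-fold to 61.3-fold. That span covers spot error only. With another background method (normexp, described below) the log2 ratio was 4.12, outside the span. Gtsf1 ranked 6 from the top among 17261 features measured on both arrays. Among all 19359 features compared, with dim signals as measured, it ranked 31.

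Piwil2 encodes the PIWI protein (MILI) that binds piRNAs in fetal and postnatal male germ cells. Its signal was 8.32 on the control array, 86.3 ± 10.0 on the knockdown array and 6.92 on the ATM-labelled array. Only the middle value was detected. Set against the lowest detected signal of the control array, Piwil2 was at least 2.56-fold higher on the knockdown array. The log2 ratio of the signals as measured was 3.54.

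Asz1, also called GASZ, anchors piRNA factors at mitochondria in the germ granules of male germ cells. Its signals were 8.88, 60.4 ± 8.20 and 8.39 on the control, knockdown and ATM-labelled arrays. The bound for its difference from the control array was at least 1.79-fold, below the 2-fold limit, against a measured log2 ratio of 2.93. Mov10l1 encodes the RNA helicase that binds piRNA precursors. Its signals were 7.98, 54.3 ± 7.36 and 11.9 on the same arrays, with a bound of at least 1.61-fold and a measured log2 ratio of 2.93. For both genes the knockdown array was the one detected, at a little over 7 times the spot's software error (7.36 for Asz1 and 7.37 for Mov10l1). Mov10l1 on the ATM-labelled array reached 1.79 times its error, which the software marked as positive and significant but not as well above background.

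The promoters of 3 of the detected members are shown with that of Mael, which stayed undetected, to let their CpG content be compared; Mael was chosen as the contrast after its values were seen. Sequences are from RefSeq (GRCm38.p6), read 5′ to 3′ in the direction of the gene, and hold the bases upstream of the gene's outermost annotated start that lie within the 250 bases before the start site used by the table. Capitals mark CpG dinucleotides, the sites that the maintenance methyltransferase acts on.
Gtsf1, chr15:103430446-103430677, - strand: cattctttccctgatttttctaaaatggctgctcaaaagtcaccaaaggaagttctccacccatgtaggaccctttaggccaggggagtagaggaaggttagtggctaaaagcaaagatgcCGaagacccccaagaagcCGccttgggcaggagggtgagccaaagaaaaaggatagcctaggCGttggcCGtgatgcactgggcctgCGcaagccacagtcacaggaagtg
Asz1, chr6:18109062-18109311, - strand: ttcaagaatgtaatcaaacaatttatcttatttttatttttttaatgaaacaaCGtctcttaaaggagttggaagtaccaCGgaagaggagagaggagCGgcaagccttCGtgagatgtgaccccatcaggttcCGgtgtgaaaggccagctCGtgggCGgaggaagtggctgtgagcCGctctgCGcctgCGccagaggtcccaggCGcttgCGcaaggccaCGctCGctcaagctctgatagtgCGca
Mov10l1, chr15:88982744-88982890, + strand: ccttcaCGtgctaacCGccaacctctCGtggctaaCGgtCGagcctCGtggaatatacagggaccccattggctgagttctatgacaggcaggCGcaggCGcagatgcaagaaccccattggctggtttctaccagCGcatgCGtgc
Mael, chr1:166238745-166238994, - strand: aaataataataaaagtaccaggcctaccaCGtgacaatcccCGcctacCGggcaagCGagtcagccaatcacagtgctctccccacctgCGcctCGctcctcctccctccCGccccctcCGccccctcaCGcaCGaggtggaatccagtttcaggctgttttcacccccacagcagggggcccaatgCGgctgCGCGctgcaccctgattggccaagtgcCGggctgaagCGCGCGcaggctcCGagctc
The Gtsf1 stretch held 5 CpG sites in 232 bases, Asz1 15 in 250, Mov10l1 10 in 147 and Mael 18 in 250. No methylation was measured in these samples.

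Over the full windows of 300 bases (250 before and 50 after the start site), 9 of the 10 members had an entry, and Piwil2 had none. CpG observed over expected, the CpG count relative to that given by the C and G content, ranged among them from 0.430 in Tdrd9 to 1.11 in Tdrd5, with a median of 0.674. The median over 27025 promoters, 1 per gene, was 0.389, with quartiles of 0.174 and 0.754. The detected members Gtsf1, Mov10l1 and Asz1 had 0.531, 0.674 and 0.783. Of the undetected members, only Tdrd9 (0.430) lay below these values and only Tdrd5 (1.11) above them. The start site used for Tdrd5 lies 956 bases inside the gene's outermost annotated start. The next highest undetected member, Mael, had 0.780, just below Asz1. Of the 9 windows, 5 (Asz1, Mael, Mov10l1, Tdrd1 and Tdrd5) had a ratio of at least 0.6 and a GC content of at least 50%, compared with 34.1% of all promoters.

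**Figure D2:**
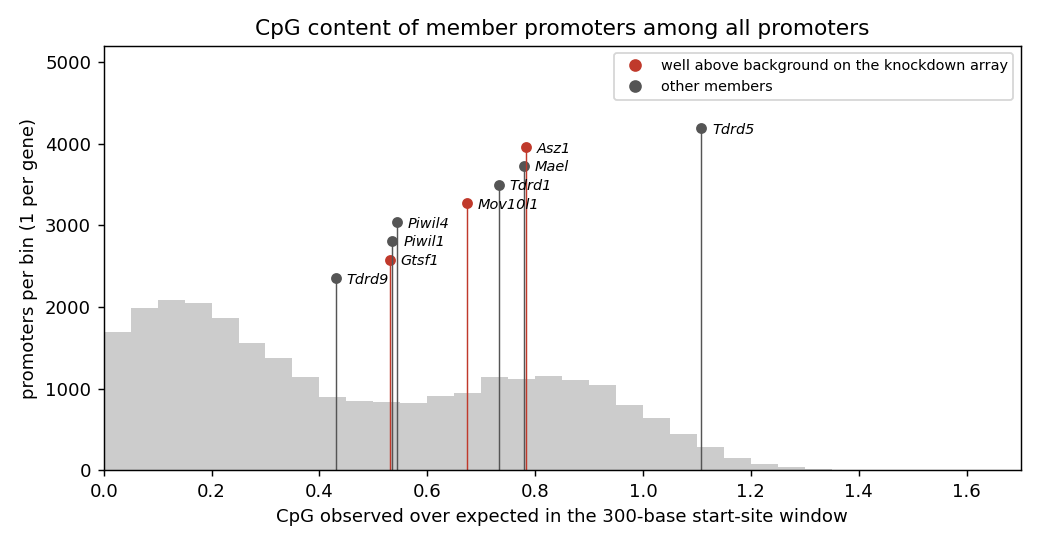
CpG observed over expected in the 300-base window at the start site (x axis) for 27025 promoters (grey bars, promoters per bin of 0.05) and for the 9 members with an entry (pins, whose heights carry no value; red for members detected on the knockdown array). The red pins at 0.531, 0.674 and 0.783 lie among the other members, which run from 0.430 to 1.11.

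Motifs were searched on both strands of the same windows. CACGTG, an E-box bound by MAX dimers, stood in 5 of 9 member windows (Mael, Mov10l1, Piwil1, Tdrd1 and Tdrd9) and in 7.24% of all promoters. Among those 5 genes, Mov10l1 was the one detected on the knockdown array. GCGGGA, the core of an E2F site, stood in 2 windows (Mael and Tdrd5) and in 20.1% of all promoters. The core CCGTTN of a MYB site stood in 4 windows (Mov10l1, Piwil1, Tdrd5 and Tdrd9) and in 17.6% of all promoters, and the looser core AACNG, which covers every CCGTTN match, in 8 windows and in 80.4%. The Gtsf1 window held none of the 4 motifs, which says only that these letters are not in it.

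The members that stayed undetected included Piwil1 (MIWI), the PIWI protein of meiotic and post-meiotic male germ cells, and all 3 tudor-domain members. Tdrd1 and Tdrd9 bind PIWI proteins or unwind RNA in fetal germ granules, and Tdrd5 acts in the assembly of those granules. Mael encodes an HMG-box protein of the same granules. Their 6 probes read between 8.62 and 9.55 on the control array, between 7.68 and 9.89 on the ATM-labelled array and between 5.68 and 10.6 on the knockdown array. The highest of these, Mael at 10.6 ± 5.38, was 1.97 times its software error and was marked positive and significant, without reaching the mark for well above background. Tdrd5 was read by 2 probes and neither was detected on any array.

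Set against the control array, the knockdown array showed members either higher or not measurable, with none lower. Of the 4 members detected on at least 1 of these arrays, 4 were at least 2-fold higher with dim signals as measured, compared with 7.68% of all 19359 features compared. With dim signals at their bound 2 members were at least 2-fold higher (Gtsf1 and Piwil2), compared with 4.79% of all features. No member was at least 2-fold lower, where 2.23% of all features were. Piwil2, Asz1 and Mov10l1 entered this comparison only through their signal on the knockdown array and so had to differ, and the counts carry no weight beyond description. Over all 9 measured members without that filter, the median log2 ratio was 0.46, compared with -0.13 for all features. Above 0 were 5 of 9 members and 12196 of 32524 features. That median is the ratio of Mael, which was not detected on either array, so it gives no order between them. The control and knockdown arrays lay on the same slide and in the same scan.

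**Figure D3:**
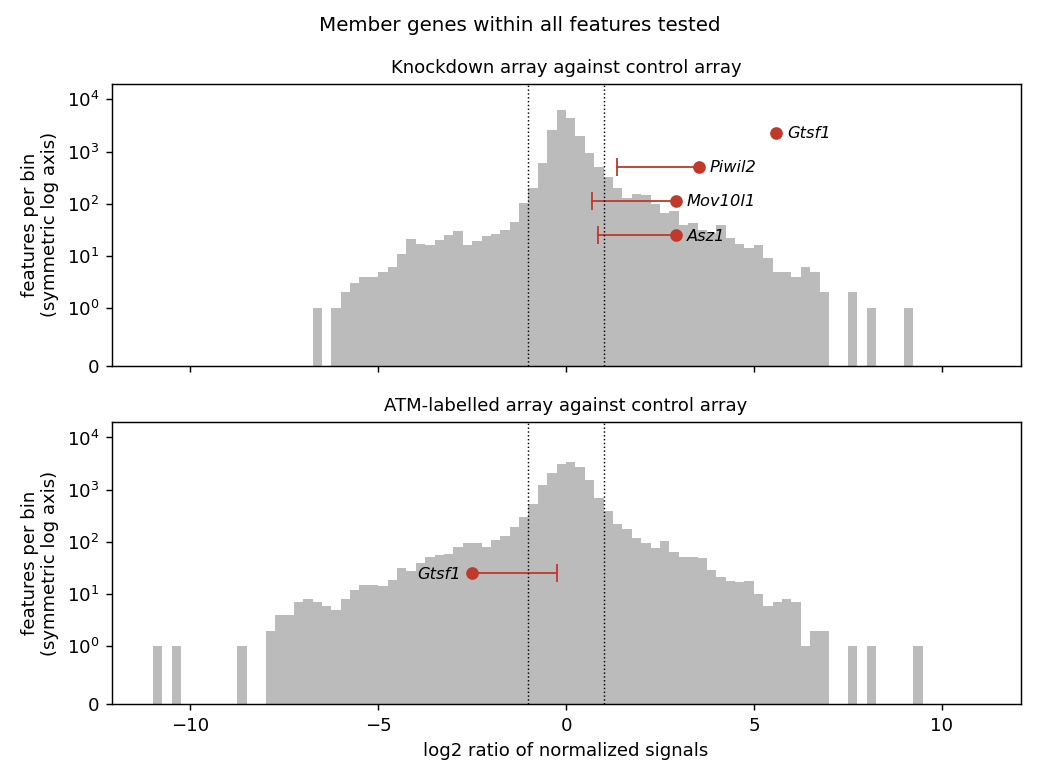
Log2 ratios to the control array (x axis) of all features compared (grey bars, features per bin of 0.25, symmetric log axis) with the members as red points at arbitrary heights, for the knockdown array (upper) and the ATM-labelled array (lower); a line ends at the bound where 1 array was not well above background, and dotted lines mark 2-fold. Gtsf1 stands at 5.60 in the upper panel, and the bounds of Asz1 (0.84) and Mov10l1 (0.69) fall inside the 2-fold lines.

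On the ATM-labelled array 1 member, Gtsf1, could be compared with the control array. Its log2 ratio as measured was -2.50, past 2-fold as were 7.96% of 18463 features in that direction. Its bound was at least 1.17-fold lower, under the 2-fold limit that 6.36% of features passed by such bounds, since the control signal of 42.1 was itself close to that array's lowest detected signal, so a 2-fold difference was not shown. The other 8 members were not well above background on either array. This array was on a second slide and in a second scan, so the slide and the vector cannot be told apart. Both comparisons share the control array. Set side by side with the knockdown array, the ATM-labelled array was at least 56.8-fold lower for Gtsf1, 2.69-fold for Piwil2, 1.88-fold for Asz1 and 1.69-fold for Mov10l1. All 4 were detected on the knockdown array and not on the ATM-labelled array, so the direction of these bounds was fixed by the filter.

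Other germline genes of the pathway were likewise partly detected and partly silent. Of 23 on the list 21 had a probe, and 8, 14 and 8 of these were detected on the control, knockdown and ATM-labelled arrays. The shares of all genes and unnamed transcripts detected were 54%, 58.6% and 53.9%. Of the 14 compared between the knockdown and control arrays, 5 were higher by 2-fold or more as measured, beside 7.68% of all features, and 4 of these with dim signals at their bound, beside 4.79%; 0 were lower. Of the 14, 6 entered the comparison only through their signal on the knockdown array, among them 4 of the 5 (Stk31, Fkbp6, Gpat2 and Tex19.1), so their direction was fixed by the filter. Among the 8 detected on both arrays 1 was higher, Pnldc1, as were 585 of 17261 features detected on both. The median log2 ratio of the 14 was 0.45, or 0.40 with bounds and 0.14 over all 21 without a filter. For all features these medians were -0.02, -0.01 and -0.13. Tex19.1, which restrains transposons in germ cells, had signals of 9.54, 2361 and 9.55 on the control, knockdown and ATM-labelled arrays, at least 70.1-fold higher after the hairpin. Gpat2, a mitochondrial acyltransferase homologue needed for piRNA production, had 33.0, 1012 and 36.6, at least 30.0-fold higher. Fkbp6, a co-chaperone of piRNA loading, had 9.0, 149.9 and 9.0, at least 4.45-fold higher. In all 3 the knockdown array stood apart from the other arrays. Pnldc1, the nuclease that trims piRNA ends, was detected on every array at 119.7, 239.8 and 138.4, a 2.25-fold difference. Stk31, a tudor-domain kinase homologue, had 8.24, 48.0 and 7.0 and a bound of at least 1.43-fold.

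Detection alone did not always mark a higher signal. Of the 5 listed genes detected on the knockdown array and on no other (Stk31, Pld6, Fkbp6, Dnmt3l and Tex19.1), Pld6, the mitochondrial nuclease (Zucchini) of piRNA biogenesis, had signals of 27.9, 28.7 and 23.5. Dnmt3l, the cofactor of germline de novo methylation, had 37.2, 38.1 and 30.3. Neither moved by 2-fold, and the lowest detected signal was 25.1 on the knockdown array against 37.8 on the control array and 32.7 on the ATM-labelled array. The signals of Piwil2, Asz1 and Mov10l1 on the knockdown array exceeded the highest of these 3 levels, also after scaling to the 75th percentile. On the list, 7 genes, among them the germ-cell helicase Ddx4 and the methyltransferase Henmt1, were not detected on any array.

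**Figure D4:**
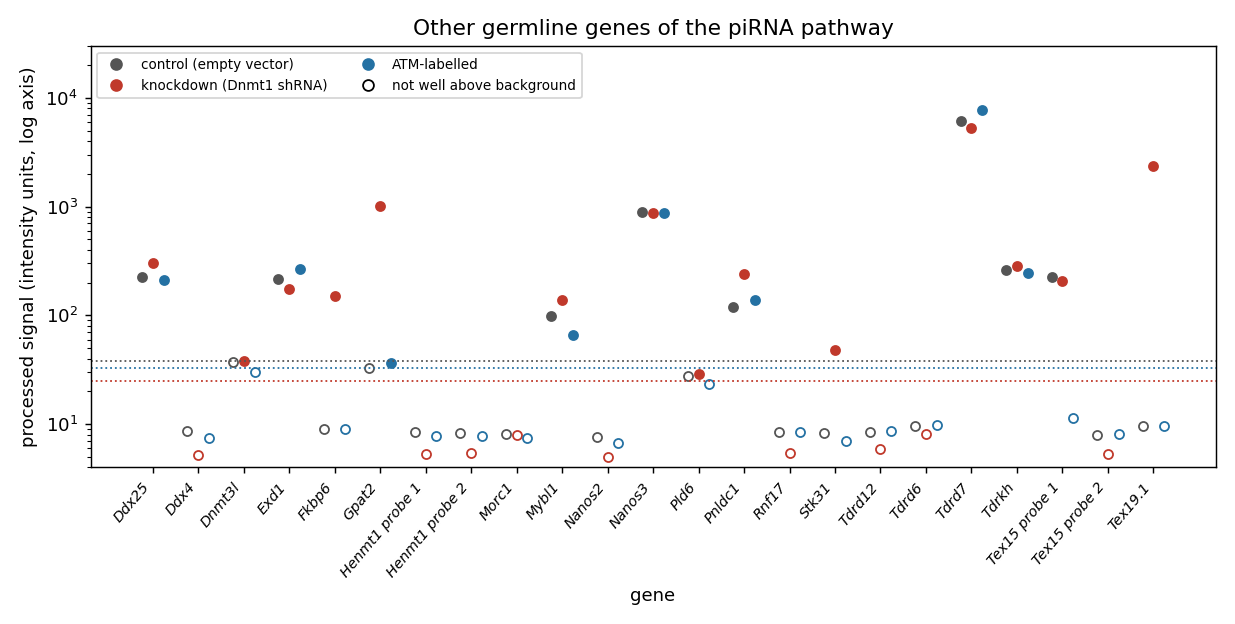
Processed signal (intensity units, log axis) of the probes of the 21 other germline genes of the pathway on the 3 arrays; filled points are well above background and dotted lines give each array's lowest such signal. Tex19.1, Gpat2 and Fkbp6 separate the knockdown array from the others, whereas Pld6 and Dnmt3l are filled on that array at nearly equal signals.

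Relatives (paralogs) of the members that were not on the germline list were detected at 5, 6 and 5 of 9 on the control, knockdown and ATM-labelled arrays. Over all genes and unnamed transcripts the shares were 54%, 58.6% and 53.9%. The pathway's widely expressed partners were detected at 7 of 7 on every array. None of the 6 paralogs compared (of 9 listed) and none of 7 partners was 2-fold different between the knockdown and control arrays, with medians of -0.07 and -0.26. Mov10, the somatic paralog of Mov10l1, had signals of 5121, 3225 and 2107, which is 2.21-fold lower on the ATM-labelled array than on the control array. Ago1, an argonaute protein of the microRNA pathway, had 526, 442 and 56.0 by its detected probe, 8.54-fold lower on the ATM-labelled array, and its other probe was not detected. The Gtsf1 relatives Gtsf1l and Gtsf2 were not detected on any array. On the ATM-labelled array Tex15, a factor of piRNA-directed methylation, had 11.5 by the probe that read 227.1 with the empty vector, at least 6.32-fold lower, and its second probe was not detected on any array.

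Arrays of RNA from whole cultures cannot tell fewer cells of a type from less RNA per cell, so cell type markers were read beside the members. Fibroblast markers were detected at 12, 13 and 13 of 13 on the control, knockdown and ATM-labelled arrays. Markers of early germ cells were detected at 1, 2 and 2 of 12, with summed signals between 1004 and 1165, and the defining genes Dazl, Ddx4, Dppa3 and Nanos2 were not detected on any array. Most of that sum came from Nanos3, an RNA-binding protein of primordial germ cells, which was detected on every array at 889, 872 and 867. Markers of meiotic and haploid germ cells were detected at 4, 5 and 4 of 10 and those of oocytes at 1, 2 and 2 of 8. The germ-cell markers with bounds of at least 2-fold between the knockdown and control arrays were Sycp3, a protein of the meiotic chromosome axis (16.7, 79.4 and 34.0, at least 2.36-fold higher), Bmp15, an oocyte growth factor (7.61, 104.9 and 7.98, at least 3.11-fold higher), and Dmc1, the meiotic recombinase, by 1 of 3 probes (83.7, 5.42 and 8.36, at least 2.98-fold lower). The sperm protamine Prm1, a marker of haploid cells, was detected on every array at 833, 649 and 1012, within 2-fold of the control array.

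Some markers of other lineages also differed between these arrays. Epithelial markers were detected at 2, 4 and 2 of 5, with summed signals of 183, 2481 and 4633. Krt14 gave 4491 of the sum on the ATM-labelled array. Epcam was not detected on any array. Against the control array, Cdh1 was 1.54-fold higher on the knockdown array and 1.79-fold higher on the ATM-labelled array. On the knockdown array the simple-epithelial keratins Krt18 and Krt8 were higher by at least 39.8-fold and 22.0-fold, and Thy1, a fibroblast surface protein, at least 36.2-fold. Markers of the gonadal soma were detected at 3, 5 and 3 of 6. On the knockdown array Wt1, a transcription factor of that lineage, was at least 4.95-fold higher, Nr5a1 2.14-fold and Dhh at least 1.56-fold. Sox9 and Gata4 lay within 2-fold, and Amh was not detected on any array. On the ATM-labelled array the basal keratin Krt14 was 63.1-fold higher than on the control array, the receptor Kit, a marker of early germ cells and other lineages, at least 6.41-fold, and the embryonic globin Hbb-bh1 at least 59.7-fold. Of the other blood markers, Itgam lay within 2-fold, and Ptprc and Spi1 were not detected on that array. Most fibroblast markers lay within 2-fold of the control array: 9 of 13 on the knockdown array, where the other 4 were higher (Thy1, Pdgfra, Lum and Postn), and 9 of 13 on the ATM-labelled array, where 2 were higher (Postn and S100a4) and 2 lower (Dcn and Lum). The collagens Col1a1, Col1a2, Col3a1 and Col5a1 and the matrix protein gene Fn1 were among those within 2-fold on both arrays. Of the matrix genes beyond it, Postn was 3.27-fold and Lum 2.49-fold higher on the knockdown array, and Postn was 7.53-fold higher and Lum 9.23-fold lower on the ATM-labelled array. The part of any such cells in the members' signals was not tested. The check of the hairpin itself gave Dnmt1 signals of 4908, 956 and 3169, a 4.58-fold lower value on the knockdown array. Atm (430, 366 and 409 by its detected probe) and Rb1 (541, 782 and 460) were read by probes whose place relative to the deletions is not known, so they check neither genotype nor vector.

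The genes most like the members in level over the 3 arrays were ranked by Euclidean distance of normalized log2 values, among 14007 named genes detected at least once. Nearest to Gtsf1 were Cxcl5 (distance 1.14), a chemokine, Tnmd (1.43), a tendon protein, Ahsg (1.47), a plasma glycoprotein, Krt18 (1.57) and Rhox2c (1.69), a reproductive homeobox gene. Nearest to Piwil2 were Fthl17d (0.04), a ferritin-like gene, Ccnb1ip1 (0.12), a meiotic crossover factor, Mapk10 (0.19), Tmem30b (0.21) and Fam71a (0.21). The distance includes each probe's own brightness and rests on 3 values. For Piwil2 and its neighbours it rests on floor values for the control array and the ATM-labelled array. Gtsf1 and its neighbours were also not detected on the ATM-labelled array, and Krt18 and Rhox2c not on the control array either. The distance thus orders likeness of signals and nothing further.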

How the data were processed

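RNA was hybridised to 1 array per group, with groups taken from the transfection label. The authors deposited scanner output of Agilent Feature Extraction 10.7.3.1, per the file headers and the submitters' processing notes. Its processed signal is a linear intensity, background-subtracted by that software and not scaled between arrays, per the file headers; the flags are marks of 0 or 1. The deposited series matrix holds the same intensity values, within 0.495% for each spot. The array design was placed on mm9, per the file headers, so it shares no coordinates with the RefSeq tables.

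Control and outlier spots were left out, and 39404 probes stayed; log2 signals of repeated spots were averaged and each array's 75th percentile was subtracted. Member probes had 1 spot each. Accessions were named through RefSeq (GRCm38.p6): 26391 probes matched a symbol and 13013 kept their accession. A probe entered a comparison when either array had it well above background, and the probes of a gene were averaged. Where 1 array was dim, the bound sets the bright signal against the higher of that array's lowest detected signal and the dim signal itself. That lowest signal is not a detection limit for every spot, since Prm2 read 46.9 on the control array without being detected. The folds given as "at least" hold only under this rule. Between 54.97% and 59.58% of probes were detected per array, no spot was saturated, and repeated detected spots had a median SD of 0.046 to 0.052 (log2); the number of arrays limits precision.

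The normexp alternative (limma 3.58.1, R 4.3.3, offset 50) used median spot signals in place of mean ones. Other work used Python 3.11.15, numpy 2.4.6 and pandas 2.3.3, and the ratio step was tested on simulated data. Members and lists were chosen with earlier results of these data known. Apart from the members, Dnmt1, Atm and Rb1, listed genes were named if at least 2-fold different from the empty vector as measured or by a bound, up to 6 per list, with the 5 nearest genes of 2 members. Marker genes so named are printed where they bear on the members. Further genes (Pld6, Dnmt3l, Nanos3, Prm1, Prm2, Cdh1, Sox9, Gata4, Itgam, Ptprc, collagens, Fn1, Gtsf1l, Gtsf2 and undetected marker genes) were named after their values were seen. Planned protein comparisons were not run, as no protein table was used here. Spocd1, Btbd18 and Cd68 had no probe matched by accession.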

Additional observations from a re-analysis of the deposited data

How the results depend on the processing

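The counts of detected members were 1, 4 and 0 also at a common detection level and when all probes of a gene had to be detected; with the flag for a positive and significant signal they were 1, 5 (Mael added) and 1 (Mov10l1), so the last count moved to 1. With 4 other scalings, the series matrix or outlier spots kept, 4 members stayed at least 2-fold higher after the hairpin. The ratios of Gtsf1, Piwil2, Asz1 and Mov10l1 stayed within their software error (0.34 for Gtsf1 and 1.45 for the other 3, log2). The 1.45 comes mostly from the dim control spots, whose substitute value is close to their own error. A scaling by 1 value per array also shifts all genes alike. For Piwil2, Asz1 and Mov10l1 these settings were therefore a weak check. The normexp background compressed the log2 ratios to 4.12 for Gtsf1, 1.42 for Piwil2, 1.09 for Asz1 and 0.93 for Mov10l1. The member median was then 1.25 in place of 3.24, and 3 members were left at least 2-fold higher. The normexp offset adds a constant to every dim signal. It also moved Gtsf1, and with it the median, to -0.54 on the ATM-labelled array, where 0 members then passed 2-fold. With dim signals at their bound, 2 members were at least 2-fold higher after the hairpin (median 1.10) and 0 lower on the ATM-labelled array (median -0.23). Without a filter the medians over 9 members were 0.46 and, with the sign reversed, 0.12, since 8 dim members enter the latter. Each of these medians is the ratio of a member not detected on either array (Mael and Tdrd5). A limit of 4-fold gave the same counts. No member was detected on all 3 arrays, so that filter gave no value. No paired analysis was possible because each group has 1 array. Signal over background limits every member: Gtsf1 was measured on both sides only between the knockdown and control arrays, and every other member comparison gives a bound or no value.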
